A study of Mus musculus with 2 samples.

Results

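The genes described here are the parts of glycine signalling and of D-amino acid metabolism in the brain of postpartum dams: the glycine receptor subunits Glra1, Glra2, Glra3 and Glrb, the receptor scaffold Gphn, the glycine transporters Slc6a5 and Slc6a9, and the D-serine enzymes Dao and Srr. They were chosen by name, as the probes of a whole mouse genome array that are listed under these symbols, and all 9 genes were found among the 27670 genes named on the array, with 17 probes among 41174. Dao was listed under its older symbol, Dao1, and was found through its transcript NM_010018, whereas the other 8 were listed under the symbols given. Srr had 5 probes, Gphn 4, Glra3 2 and each of the other 6 genes 1. Every probe was 60 bases long and was printed as 1 spot per array.

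The study compared the brains of dams lacking TDAG51 (the gene Phlda1, a target of T cell activation with roles in cell survival) with those of dams that carry it, in search of transcripts that differ at parturition. Total RNA of whole brain was taken from C57BL/6J female mice of 8 weeks on postpartum day 0. On the first array the TDAG51-/- sample, labelled with Cy3, was hybridized against a wild-type TDAG51+/+ sample in Cy5. On the second the TDAG51-/- genotype was again in Cy3 and the Cy5 channel held TDAG51-/-Tg2, which carries the same deletion plus a TDAG51 transgene. The transgene is driven by the promoter called BAI1-AP4, used for its activity in brain, and Tg2 is a single transgenic line. The labels state neither how many dams a sample holds nor whether RNA was pooled, and whether both TDAG51-/- channels hold the same RNA was not given in the sources used here. Each comparison rests on 1 array and the dyes were never exchanged, so the spread between dams was not measured, no test was possible, and dye and genotype cannot be told apart. Every ratio below has TDAG51-/- in the numerator and is on the log2 scale, where 1 is a 2-fold difference, the threshold the study used.

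Glycine is the main fast inhibitory transmitter of the spinal cord and brainstem. It is taken into nerve endings by the transporter GlyT2 (Slc6a5), is packed into vesicles, and opens a chloride channel built of alpha subunits (Glra genes) and the beta subunit (Glrb), which gephyrin (Gphn) holds at the synapse. In the forebrain, glycine and D-serine act on another receptor, as co-agonists of the NMDA type of glutamate receptor. D-serine is made from L-serine by serine racemase (Srr) and is broken down by D-amino acid oxidase (Dao), an enzyme best known in the cerebellum and hindbrain.

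Of the probes with the members' names, 4 crossed an intron, and their sequences are shown because they read the spliced message of a receptor subunit, of the scaffold and of the oxidase. They lie, on the mm7 build, at chr11:55493234-55522997 on the minus strand (Glra1), chr8:54485976-54489767 (Glra3), chr12:76335089-76371071 (Gphn) and chr5:113245773-113246680 (Dao), the last 3 on the plus strand. The intervals span 29764, 3792, 35983 and 908 bases, and the 60 bases of each probe come from their exons. The probe of a further alpha subunit, Glra4 (chrX:131486610-131491993), is added because it ends in the 14 bases with which the Glra3 probe begins. Capitals mark those shared 14 bases.
Glra1: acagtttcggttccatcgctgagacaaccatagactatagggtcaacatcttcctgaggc
Glra3: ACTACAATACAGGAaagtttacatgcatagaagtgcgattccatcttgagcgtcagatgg
Glra4: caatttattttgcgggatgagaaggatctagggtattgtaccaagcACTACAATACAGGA
Gphn: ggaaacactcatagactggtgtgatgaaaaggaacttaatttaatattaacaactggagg
Dao: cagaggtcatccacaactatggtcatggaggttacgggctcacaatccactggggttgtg

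The upstream sequences of the 2 genes Slc6a5 and Dao, which with Glra1 were past 2-fold against both controls, are given for context (RefSeq, GRCm38.p6, the 250 bases before the first listed start, plus strand). The table of promoters matched 8 of the 9 members, all but Glra1, with 13 starts. Capitals mark matches to 4 short motifs on either strand. The letters GGGCGG are in 32.7% of the 32851 promoters of this length. The TATA-box letters TATAAA are in 12.4% of them. The letters CCAAT are in 33.8% and the letters TGACG in 17.8%. The Slc6a5 window (chr7:49910049-49910298) held 1 TGACG and the Dao window (chr5:114003485-114003734) 2 GGGCGG, and the pair had no motif of these in common. A match is a description of letters and not a binding site.
Slc6a5: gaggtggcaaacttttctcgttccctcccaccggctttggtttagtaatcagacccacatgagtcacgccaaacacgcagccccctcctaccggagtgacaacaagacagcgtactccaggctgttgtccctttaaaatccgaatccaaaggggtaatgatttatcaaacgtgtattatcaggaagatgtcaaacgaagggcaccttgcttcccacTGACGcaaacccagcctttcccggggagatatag
Dao: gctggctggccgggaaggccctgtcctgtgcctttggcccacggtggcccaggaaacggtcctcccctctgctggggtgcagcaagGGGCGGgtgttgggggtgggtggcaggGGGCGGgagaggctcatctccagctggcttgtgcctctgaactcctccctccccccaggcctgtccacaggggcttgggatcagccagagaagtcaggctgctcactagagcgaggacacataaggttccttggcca

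Before the members, the targeted gene and markers of brain regions and other tissues were read. The Phlda1 probe (chr10:110970234-110970293) read 350.5 in TDAG51-/- and 7283 in TDAG51+/+, a 17.3-fold lower level. On the other array it was near background in both channels, at 44.08 and 50.47. The TDAG51-/- channel was thus well above background for Phlda1 on the first array only. Whether this probe lies in the transgene was not given in the sources used here, so it does not check the Tg2 label. The labels did not list a genotype for each channel, and the dyes were assigned from source names, dye labels and this probe. Its ratio on the first array is therefore no independent check of that assignment. All 6 neuron markers were well above background. The TDAG51-/- channels of the 2 arrays were not alike for globins: Hba-a1 read 2259 on the first and 35470 on the second, and Hbb-b1 9175 and 56950. They were alike for the blood marker Alas2, at 2033 and 1966, while its controls read 6630 in TDAG51+/+ and 946.0 in TDAG51-/-Tg2. Of 5 pituitary markers, 0 were past 2-fold on the first array, where prolactin (Prl) read 89.72 in TDAG51-/- and 80.16 in TDAG51+/+. On the second array 2 were lower, Prl at 222.7 in TDAG51-/- and 5192 in TDAG51-/-Tg2, and Gh at 108.8 and 1512. The other pituitary markers, Tshb, Lhb and Pit1, had ratios of 0.40, -0.15 and -0.86 there. Median spot intensities were between 321.6 and 368.5 in the 4 channels over median backgrounds of 39.0 to 44.0. Probes with repeat spots had a median SD of 0.057 (220 probes) and 0.060 (219 probes) for their log2 ratio, which is technical error within an array only.

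The transporter of glycinergic terminals, Slc6a5, and the glycine receptor subunit Glra1 were much higher in TDAG51-/- than in either control. For Slc6a5 the TDAG51-/- level was 7.805-fold that of TDAG51+/+ and 9.17-fold that of TDAG51-/-Tg2. For Glra1 it was 5.38-fold and 5.22-fold. Dao was also past the threshold against both, narrowly, at 2.12-fold and 2.01-fold. No member was 2-fold lower against either control. In RNA of whole brain, more cells of a type and more RNA per cell cannot be told apart.

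Of 17 member probes measured on the first array, 3 were at least 2-fold higher than in TDAG51+/+ and 0 lower, where 4.90% of all probes were higher and 4.42% lower. Of 16 measured on the second array, 3 exceeded TDAG51-/-Tg2 by at least 2-fold and 0 were lower to that extent, where the shares of all probes were 4.72% and 3.86%. The same 3 probes, of Slc6a5, Glra1 and Dao, passed against both controls, as did 2.69% of all probes, and 0 were lower against both, as were 1.37%. The scanner software's own ratios gave another split, of 4 higher and 2 lower against TDAG51+/+ and of 6 higher and 1 lower against TDAG51-/-Tg2, and the additional calls were of dim probes or of probes close to 2-fold. Taking each gene by its brightest probe, the median log2 ratio of the 9 genes was 0.18 against TDAG51+/+ and 0.60 against TDAG51-/-Tg2, beside 0.00 and 0.01 for all genes. Single probes ran from -0.92 to 2.96 against TDAG51+/+ and from -0.47 to 3.20 against TDAG51-/-Tg2. The comparisons share the TDAG51-/- genotype and its dye, so they are set side by side and are not independent.

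**Figure D1:**
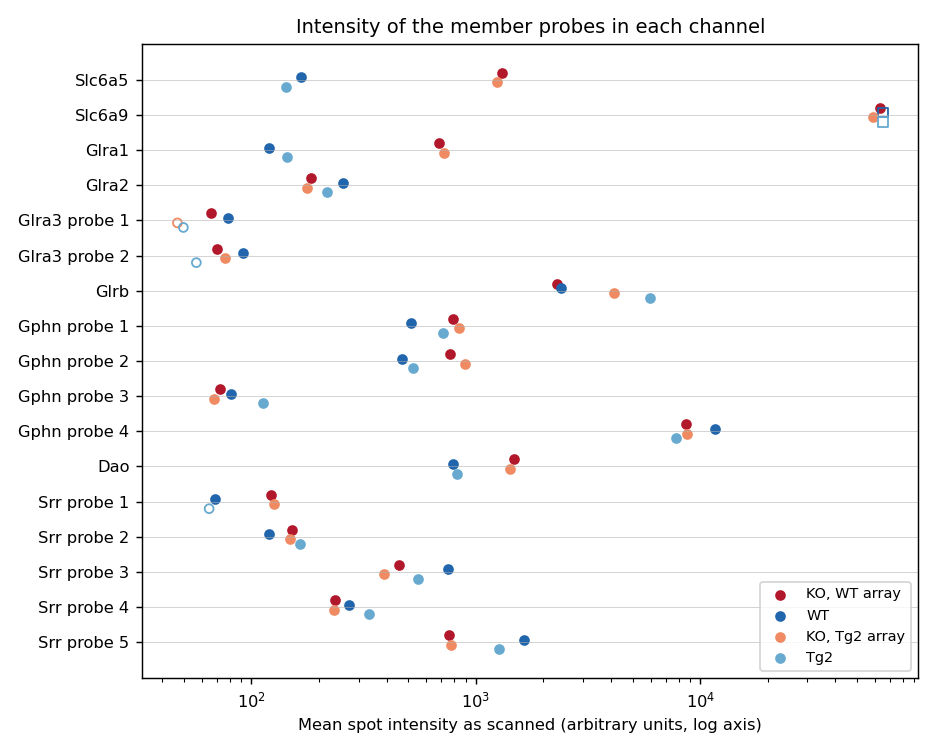
Mean scanned intensity (arbitrary units, log axis) of each member probe in the 4 channels, with probes of a gene numbered from its 5′ end. Filled points are well above background, open circles are near background and open squares are saturated. Slc6a5 and Glra1 show both TDAG51-/- channels (KO) far to the right of TDAG51+/+ (WT) and TDAG51-/-Tg2 (Tg2), while points of different probes cannot be compared in level.

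**Figure D2:**
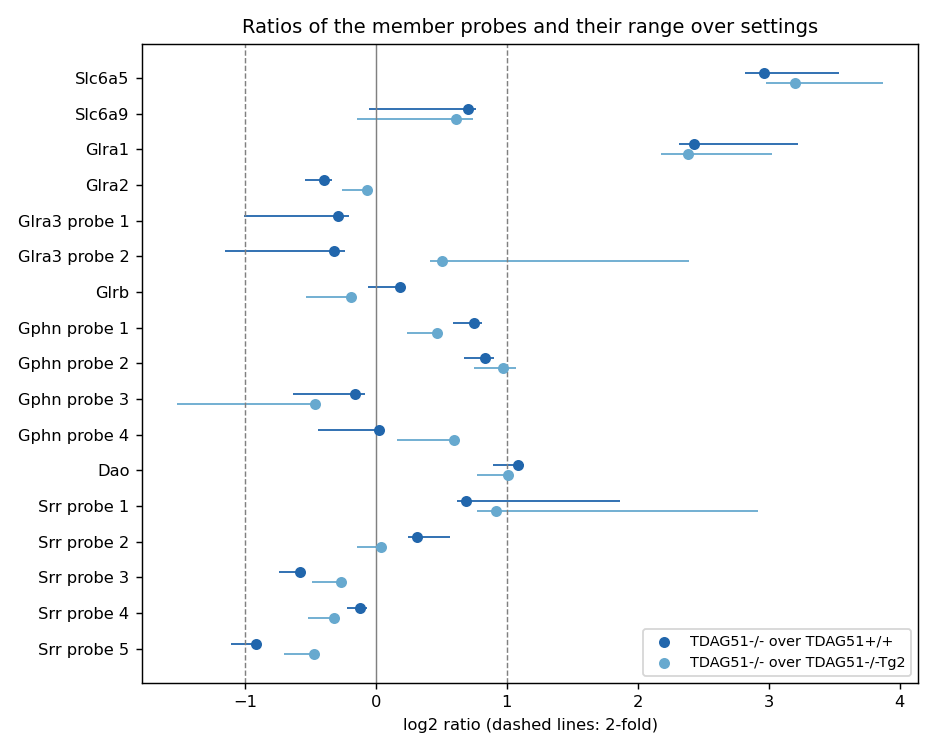
Log2 ratio of each member probe after loess normalization (points), with lines that span its values over 7 ways of background correction and normalization, and dashed lines at 2-fold. Slc6a5 and Glra1 lie beyond 2-fold along the whole of their lines, and the Dao lines cross the 2-fold mark. The longest lines belong to dim probes, while those of the bright Slc6a9 probe, saturated in both controls, span both signs. The Glra3 probe near background in both channels of the second array has no point there.

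Slc6a5, which encodes the neuronal transporter that refills glycinergic terminals, had the largest ratios of the members. Its probe, transcript NM_148931 at chr7:46184193-46184252, read 1309 in TDAG51-/- and 166.3 in TDAG51+/+ on the first array, and 1244 in TDAG51-/- and 142.1 in TDAG51-/-Tg2 on the second. Both TDAG51-/- channels were thus high and close to each other, and both controls low. The log2 ratios were 2.96 and 3.20, a height reached by 0.150% and 0.0947% of all probes. The scanner software gave 3.53 and 3.87, with errors of 0.39 and 0.42 by its own model of spot error. Over all the background and normalization settings the ratios ran from 2.82 to 3.53 and from 2.98 to 3.87. With the TDAG51-/- channel taken from the other array, an alternative chosen after seeing the data, they were 2.90 and 3.27.

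Slc6a9 encodes GlyT1, the mainly glial transporter that clears glycine around synapses. Its probe (NM_008135, chr4:117245669-117245728) was at the top of the scanner's range. It read 63040 in TDAG51-/- and 65280 in TDAG51+/+, and 58960 in TDAG51-/- and 65110 in TDAG51-/-Tg2, with both control channels saturated. The true level in the controls was therefore not measured and no fold is given. The sign of the ratio turned on the scaling, from -0.05 to 0.76 against TDAG51+/+ and from -0.14 to 0.74 against TDAG51-/-Tg2.

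Among the receptor subunits, Glra1 was past 2-fold and the others were not, save the dim Glra3 under other corrections and Glrb with the TDAG51-/- channel of the other array. Glra1 encodes the alpha1 subunit of adult brainstem and spinal cord, whose loss of function causes startle disease. Its probe (NM_020492) read 687.1 in TDAG51-/- and 119.5 in TDAG51+/+, and 722.3 in TDAG51-/- and 144.0 in TDAG51-/-Tg2. As for Slc6a5, the channels did not mix: both TDAG51-/- values were above both controls. The log2 ratios were 2.43 and 2.38, as high as 0.344% and 0.331% of probes, with scanner values of 3.22 (error 0.36) and 3.02 (error 0.35). Glra1 stayed above 2-fold in every setting, with lowest values of 2.32 and 2.18, and was 2.53 and 2.28 with the TDAG51-/- channel of the other array.

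Glra2, the alpha subunit best known from the fetal nervous system, was somewhat lower than in TDAG51+/+ and close to level with TDAG51-/-Tg2. Its probe (NM_183427, chrX:159903927-159903986) read 184.3 against 256.7 in TDAG51+/+ and 176.0 against 217.1 in TDAG51-/-Tg2, with log2 ratios of -0.40 and -0.07. The second of these was smaller than the scanner's error of 0.22 for that ratio.

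Glra3, an alpha subunit of more restricted expression, was close to background throughout. The spliced probe (NM_080438) read 70.12 in TDAG51-/- and 91.69 in TDAG51+/+, a log2 ratio of -0.32. On the second array it read 76.17 in TDAG51-/- while TDAG51-/-Tg2 was not well above background at 56.82, which allows only a bound of at least 1.06-fold higher. The other Glra3 probe (AK038618, chr8:54444833-54444892) read 65.9 and 78.31 on the first array and was near background in both channels of the second, at 46.81 and 49.75. These intensities stand little above the median background, so the direction of Glra3 is not given.

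Glrb, the beta subunit that links the channel to gephyrin, was bright, and its ratios were near 0. The probe (NM_010298, chr3:80948957-80949016) read 2298 in TDAG51-/- and 2392 in TDAG51+/+ on the first array, and 4127 in TDAG51-/- and 5981 in TDAG51-/-Tg2 on the second. The ratios were 0.18 and -0.19. The scanner's own ratios were 0.15 (error 0.20) and -0.212 (error 0.205), the second just beyond its error. With median centring they were 0.091 and -0.35, and without normalization -0.06 and -0.54, both below 0. The channels of the second array were all brighter than those of the first, and the TDAG51-/- channels themselves differed by 0.87 on the log2 scale after scaling between arrays, a distance reached by 0.402% of probes. With the TDAG51-/- channel of the other array Glrb would be 1.06 against TDAG51+/+ and -1.06 against TDAG51-/-Tg2, so its ratio rests on which TDAG51-/- channel is used.

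Gphn encodes gephyrin, which anchors glycine and GABA-A receptors and also completes the molybdenum cofactor. Its 4 probes disagreed. The brightest, at the 3′ end of the gene (NM_172952, chr12:76643168-76643227), read 8602 in TDAG51-/- and 11680 in TDAG51+/+, and 8700 in TDAG51-/- and 7793 in TDAG51-/-Tg2, with ratios of 0.03 and 0.60. The spliced probe, 151.0 kb from the first, read 765.5 against 469.7 and 895.8 against 527.3, and was 1.78-fold and 1.96-fold higher, just under the threshold. The first probe (AK017831) lies on the strand opposite to the others, and read 791.1 against 515.9 and 844.1 against 712.6, ratios of 0.75 and 0.47. The dim probe at 334.9 kb (AJ278768) was lower, at 72.25 against 80.93 and 68.0 against 112.9, ratios of -0.16 and -0.47. The probes listed under Gphn, which include the dim probe and the probe on the opposite strand, thus had no single direction. Which of them reads the main transcript was not tested.

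Dao encodes the enzyme that oxidizes D-serine and other neutral D-amino acids. Its spliced probe read 1483 in TDAG51-/- and 788.0 in TDAG51+/+, and 1421 in TDAG51-/- and 823.0 in TDAG51-/-Tg2. The TDAG51-/- channels were alike and lay above both controls, which also were alike. The log2 ratios were 1.09 and 1.01, a height reached by 3.95% and 4.63% of probes. The scanner's errors were both 0.23, larger than the distance to the threshold. Without normalization the ratios were 0.90 and 0.78, and with median centring the second was 0.96, all under 2-fold.

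Srr, the racemase that makes D-serine, had 5 probes whose ratios differed between the ends of the gene. The probe nearest the 3′ end (AK002636, chr11:74985684-74985743) was the brightest, and read 756.2 in TDAG51-/- and 1644 in TDAG51+/+, and 773.7 in TDAG51-/- and 1265 in TDAG51-/-Tg2. It was 1.89-fold and 1.39-fold lower. The probe at 10.2 kb from the first (NM_013761) read 452.3 against 755.0 and 390.1 against 551.6, ratios of -0.58 and -0.27. The one at 11.5 kb read 236.7 against 271.6 and 234.5 against 334.8, ratios of -0.12 and -0.32. Both of these were lower in TDAG51-/- than in either control. At 5.8 kb the values were 151.7 against 120.3 and 148.0 against 164.1, ratios of 0.31 and 0.04. The first probe (AK080470, a cDNA clone) read 121.7 against 68.57, and 126.3 against 64.8, the last not well above background. The ratio was 1.61-fold against TDAG51+/+, and against TDAG51-/-Tg2 it was at least 1.68-fold, in both cases with TDAG51-/- the higher. The 3 probes toward the 3′ end of Srr were thus lower in TDAG51-/- and the 2 toward the 5′ end not. No Srr probe had a measured loess ratio past 2-fold, but the AK080470 probe reached 1.30, 1.87 and 1.81 against TDAG51+/+ and 1.77, 2.92 and 2.70 against TDAG51-/-Tg2 with offset 0, the scanner ratio and the deposited ratio. The AK002636 probe was at -1.109 against TDAG51+/+ without normalization and -1.002 by the scanner. The difference between probes has no replicate check.

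**Figure D3:**
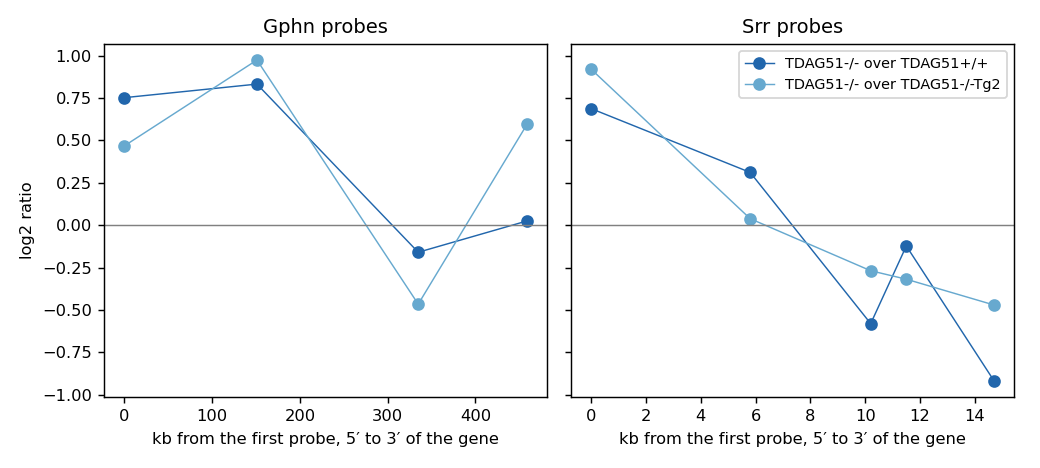
Log2 ratio of each Gphn (left) and Srr (right) probe against its distance in kb from the first probe in the direction of the gene. The Srr ratios run from above 0 at the first probe to -0.92 and -0.47 at 14.7 kb, and the Gphn probe at 334.9 kb lies below 0 between probes above it.

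The 2 controls could be set against each other through the shared TDAG51-/- genotype for 13 member probes that were well above background, and unsaturated, in all 4 channels. TDAG51-/-Tg2 over TDAG51+/+ ran from -0.57 for the brightest Gphn probe to 0.37 for Glrb, and 0 of 13 were past 2-fold, beside 5.77% of 29327 probes. It was 0.04 for Glra1, 0.08 for Dao, -0.23 for Slc6a5 and -0.45 for the brightest Srr probe. The step assumes that the TDAG51-/- channels are equal, which for Glrb they were not.

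The genes around the members were read from lists of 38 genes, of which 37 were measured. Against TDAG51+/+, 1 was at least 2-fold higher and 4 lower, beside 4.87% and 4.66% of all genes. Against TDAG51-/-Tg2, 0 were higher and 2 lower, beside 4.71% and 3.98%. Against both, 0 were higher and 1 lower, beside 2.77% and 1.57%. The medians were -0.12 and 0.015, near those of all genes. All of these values are by brightest probe, by which no gene of these lists approached the ratios of Slc6a5 and Glra1. Other probes passed 2-fold upward against both controls for Slc36a1 (1.43 and 1.59) and, at their highest, for Ddo (1.004 and 1.084). Some passed downward, among them those of Pick1 against TDAG51+/+ (-1.009) and of Grip1 against TDAG51-/-Tg2 (-1.338).

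Glycine receptor partners had medians of -0.07 and -0.21. Glra4 had ratios of -0.01 and -0.34. Nlgn2, an adhesion protein of inhibitory synapses, was lower than in TDAG51+/+ at -1.05, but had -0.15 against TDAG51-/-Tg2. Among transporters the medians were -0.23 and -0.07. Slc32a1, which loads glycine and GABA into vesicles, had 0.14 and -0.16, Slc7a10, a neuronal carrier of D-serine and glycine, had -0.30 and 0.01, and Slc1a4, a carrier of neutral amino acids such as serine, had -0.16 and 0.08. Named after their values were seen, the glutamine and glycine carrier Slc38a5 was higher than in TDAG51+/+ at 1.12 (1766 against 924.2) with 0.94 against TDAG51-/-Tg2. The neutral amino acid carrier Slc1a5 was lower at -1.78 (153.6 against 612.8) with -0.50, and Slc6a20b was lower at -1.004 with -0.22. The enzymes of serine and glycine synthesis and cleavage had medians of -0.02 and 0.13, and none of the 11 measured was past 2-fold. Phgdh, Psat1 and Psph, the path from 3-phosphoglycerate to L-serine, had ratios of 0.45, -0.14 and -0.07 against TDAG51+/+ and of 0.07, 0.13 and 0.09 against TDAG51-/-Tg2.

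On the side of D-amino acids, Ddo, which oxidizes D-aspartate, had -0.25 and 0.37 by its brightest probe. The 3 Ddo probes ran from -0.25 to 1.004 against TDAG51+/+ and from 0.37 to 1.084 against TDAG51-/-Tg2. By brightest probe, the Srr-binding proteins Pick1 and Grip1 had -0.01 and -0.41 against TDAG51+/+ and -0.34 and -0.38 against TDAG51-/-Tg2. Of 7 NMDA receptor subunits, on which glycine and D-serine act, 1 was at least 2-fold lower than in TDAG51+/+ (4.66% of all genes) and 2 were so against TDAG51-/-Tg2 (3.98%), and the medians were -0.16 and -0.23. Grin2b was 2-fold lower against both controls, at -1.48 (11610 against 49090) and -1.44 (11480 against 47780). Its probes differed, from -1.48 to 0.21 against TDAG51+/+ and from -1.48 to -0.075 against TDAG51-/-Tg2. The obligatory subunit Grin1 had -0.64 and -1.18, and Grin2a -0.64 and -0.99.

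**Figure D4:**
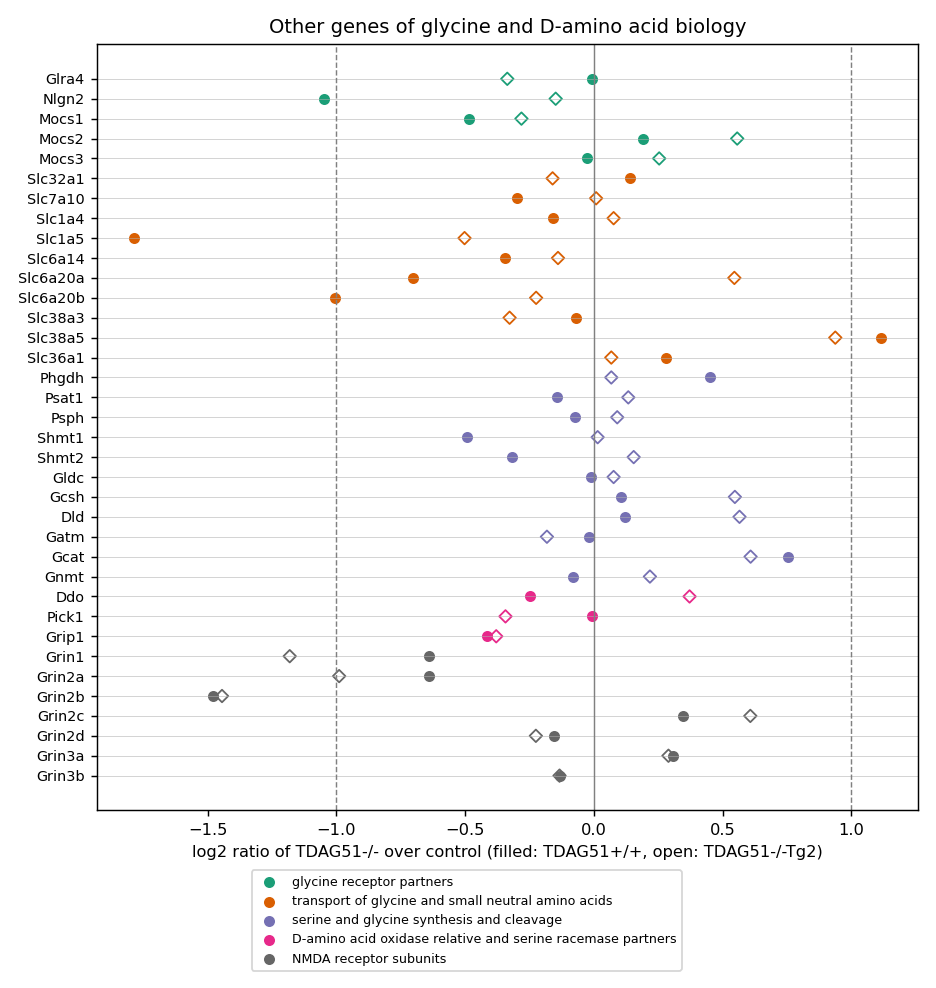
Log2 ratio of 36 other genes of glycine and D-amino acid biology by brightest probe, coloured by list, against TDAG51+/+ (filled circles) and TDAG51-/-Tg2 (open diamonds), with dashed lines at 2-fold. Most lie between the dashed lines, and Grin2b alone is beyond 2-fold with both symbols.

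Markers of cerebellum and hindbrain were higher in TDAG51-/-, as were Slc6a5, Glra1 and Dao. Of 12 cerebellum markers, 9 passed 2-fold upward against TDAG51+/+ and 10 against TDAG51-/-Tg2, with medians of 2.18 and 2.10. Their summed intensity, as scanned and without normalization, was 323900 in TDAG51-/- and 189500 in TDAG51+/+. On the second array it was 326700 in TDAG51-/- and 187900 in TDAG51-/-Tg2, with sums over saturated probes such as Pcp2. Over all genes such sums were lower in TDAG51-/-, at 96210000 against 135800000 and 96440000 against 138800000. Of the hindbrain markers, 6 of 12 and 7 of 11 measured were at least 2-fold higher, with medians of 1.55 and 1.94, and summed intensities of 7112 against 2061 and 7482 against 2274. The first 3 genes of the hindbrain list went different ways by brightest probe. Hoxa2 had ratios of 2.43 and 1.94, Hoxa3 2.21 and 2.04, and Hoxa4 -0.17 and -0.48. The other probe of Hoxa4 was higher, at 0.78 and 0.65, and that of Hoxa3 was at 0.38 and 0.175. Markers of cortex and hippocampus, and of striatum, were lower: 5 of 8 and 4 of 6 measured were at least 2-fold lower against each control, with medians of -1.14 and -1.25 for the former and -1.44 and -1.73 for the latter. Of 7 markers of astrocytes, the cells in which Slc6a9 and Dao are best known, 0 were 2-fold higher than in TDAG51+/+ and 1 was against TDAG51-/-Tg2, Aqp4, with ratios of 0.97 and 1.28. The medians were 0.07 and 0.04, over a list in which Slc1a2, Slc1a3 and S100b were saturated in at least 1 channel. The part of the regional markers in the ratios of Slc6a5, Glra1, Dao, Srr and Grin2b was not tested, and whether the brains were dissected alike was not given in the sources used here. The blood markers had medians of -2.22 and 1.22, and their part in the members' ratios was not tested.

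**Figure D5:**
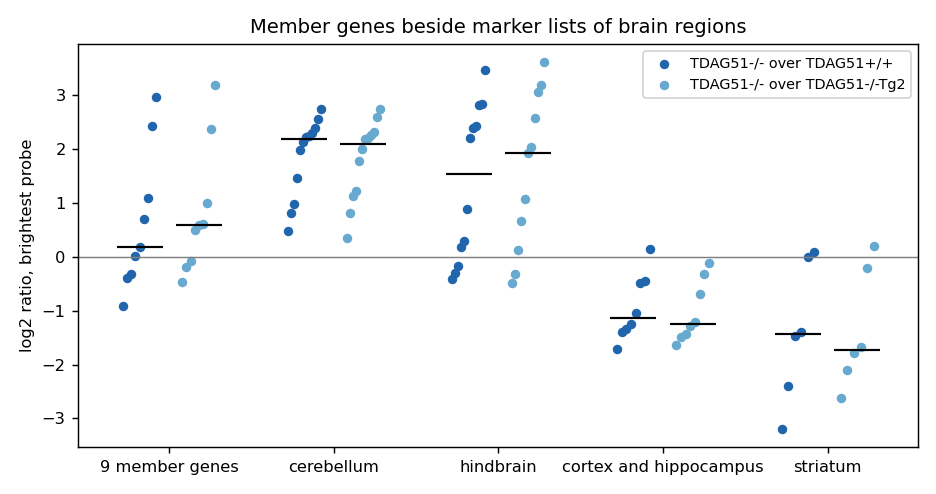
Log2 ratio of the 9 member genes and of the markers of 4 brain regions, each gene by its brightest probe, with a black line at the median of each list (Slc6a9, whose control channels were saturated, is plotted at its measured ratio). The cerebellum medians lie at 2.18 and 2.10 and the striatum medians at -1.44 and -1.73, and Slc6a5 and Glra1 are the uppermost points of the members.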

How the data were processed

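Brain RNA of TDAG51-/- (Cy3) was hybridized with TDAG51+/+ or TDAG51-/-Tg2 (Cy5) on 2 arrays of the same slide, 1 per comparison. The authors deposited, from Agilent's Feature Extraction software (9.5.3.1), the mean and background intensity of each spot, marks for background and saturation, and the software's log10 ratio of Cy5 over Cy3. The authors also deposited log2 ratios, present for 35801 and 35717 probes, with medians of -0.011 and -0.010, whose direction, Cy3 over Cy5, was found by comparison with the scanner ratios (median absolute difference 0.0059 and 0.0058). The normalization of that table was not given in the sources used here.

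Intensities were corrected with normexp (offset 50) and then loess, array by array, in limma 3.58.1 (R 4.3.3, package data.table at version 1.17.8), without outlier spots (375 and 300) and with control spots at weight 0. Without normalization the median log2 ratio was -0.19 and -0.25, so the ratios given are relative to the array's bulk. Spots of a probe were averaged, and a probe counted at 2-fold where 1 channel or both stood well above background. With 1 channel near background the fold is a lower bound, and with both near background or the dimmer saturated none is given. Tables and figures used Python 3.11.15, numpy 2.4.6, pandas 2.3.3 and matplotlib 3.10.9. The method was tested on simulated data. Probes were named from the files and a RefSeq table: of 41174 probes, 22951 matched by accession, 6659 by symbol, 3109 by synonym and 8455 not at all. Genes named are the members, Phlda1, each listed pathway gene past 2-fold against both controls, and up to 3 others of each list in list order, with markers beside results. Slc38a5, Slc1a5, Slc6a20b, Slc36a1 and Aqp4 fall outside this rule and were chosen after their values were seen. The members and lists were chosen with earlier results of these data known. Alternatives were offset 0, the scanner and deposited ratios, median centring, no normalization, other filters and other choices of probe. The number of arrays limits the precision. Individual values of some listed genes are not reported here, although counts, medians and sums hold them.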

Additional observations from a re-analysis of the deposited data

Results flagged for a closer look

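Among the member probes, 2 had computed log2 ratios of opposite sign against the 2 controls, though for Glra3 not all channels were well above background. Glrb was at 0.182 against TDAG51+/+ and -0.189 against TDAG51-/-Tg2, and Glra3 (NM_080438) at -0.316 and 0.504. The difference was not tested, with 1 array for each comparison. For Glrb the opposite sign was lost without normalization, at -0.06 and -0.54. For Glra3 the TDAG51-/-Tg2 channel was not well above background, so 0.504 is no measured level difference and only the bound of at least 1.06-fold is given.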

How the results depend on the processing

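Slc6a5 and Glra1 were past 2-fold against both controls under every setting of background correction and normalization, and 28 of 33 member ratios kept their sign. Counts of member probes were the same with both channels required above background and with no filter, and depended on the correction and normalization. Against TDAG51+/+, 0 were lower, but 2 with the scanner or deposited ratios and 1 without normalization. Against TDAG51-/-Tg2, 3 were higher, but 6 with offset 0, the scanner or the deposited ratios, and 0 were lower, but 1 with the scanner or deposited ratios. Against both, the 3 higher became 4 with those same settings and 2 with median centring or no normalization, where Dao was under 2-fold. The member gene median against TDAG51+/+ (0.18) became 0.091 with median centring, -0.06 without normalization, 0.10 without saturated probes and 0.39 as the median of all probes. Against TDAG51-/-Tg2 (0.60) it became 0.34, 0.16, 0.74 with the scanner ratio and 0.53 as the median of all probes. Without normalization, the pathway counts became 0 higher against TDAG51+/+ and 4 lower against TDAG51-/-Tg2. The median of TDAG51-/-Tg2 over TDAG51+/+ over 7 member genes (-0.23) became -0.33 with offset 0, -0.34 with the scanner or deposited ratio and -0.16 without normalization. With the TDAG51-/- channel of the other array, chosen after seeing the data, 5 probes were higher than TDAG51+/+ and 1 lower than TDAG51-/-Tg2. Where no value shows it, the cause was not tested. The slide could not be a block, since both arrays share it. No paired analysis was possible because each comparison had 1 array.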
